A study of Mus musculus with 42 samples.

Results

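HOXC6 sites gained at day 4 are binding events of the brachial HOX factor HOXC6 that were strong 48 h after its induction and had no HOXC6 event nearby 24 h earlier. They were selected on the HOXC6 read counts and positions themselves. The 10000 day 4 HOXC6 events with the highest estimated read count on chromosomes 1 to 19 and X were taken, and those with no day 3 HOXC6 event within 100 bp were kept. This left 1378 gained sites out of 69285 day 4 HOXC6 events on these chromosomes. The remaining 8622 of the top 10000 had a day 3 HOXC6 event within 100 bp and are called retained sites.

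The series is chromatin immunoprecipitation sequencing (ChIP-seq) of mouse embryonic stem cells differentiated as embryoid bodies into spinal motor neurons (MNs) with retinoic acid and the Hedgehog pathway agonist SAG. Each line is an Ainv15 derivative in which doxycycline (Dox) turns on 1 transgene, in the HOX libraries a tagged Hox factor. The tag was Flag except in 1 of 3 day 3 HOXC10 libraries (V5) and in 1 of 2 each of HOXA9, HOXD9 and HOXC13 (HA), so those lists join different tags and antibodies. The cultures also hold interneurons, and the share of cells that express the transgene was not measured here. For HOXC6 the line was Ainv15(iFlag.Hoxc6), treated with Dox from day 2 and collected at day 3 (24 h of Dox, 2 libraries) or day 4 (48 h of Dox, 2 libraries), all with the same anti-Flag antibody. The same treatments gave day 3 lists for HOXC8, HOXC9, HOXC10, HOXA9, HOXD9 and HOXC13 and day 4 lists for HOXC9 and HOXC10, while HOXC6 and HOXC9 were also profiled in embryoid bodies given Dox for 12 h without the patterning signals. The cofactor MEIS was profiled at day 3 in lines with V5-tagged Hoxc6, Hoxc9 or Hoxc10, with 1 library in each line. The cofactor PBX was profiled at day 4 in the lines with Flag-tagged Hoxc9 or Hoxc10, with 1 library in each line. Day 3 lists also came from 4 lines with Flag-tagged chimeras of HOXC10 and HOXC13, with 2 libraries each.

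HOX factors are homeodomain proteins that assign rostrocaudal identity along the body axis, and in the spinal cord they decide which muscles an MN will innervate. HOXC6 and HOXC8 are active at the brachial (forelimb) level, HOXC9 at the thoracic level and HOXC10 at the lumbar (hindlimb) level. Anterior and central HOX factors favour DNA with a TAAT core, posterior factors favour TTTAT or related cores, and both kinds can bind next to the TALE homeodomain cofactors PBX and MEIS. Between both days of sampling the cultures pass from newborn to young postmitotic MNs.

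The 2 HOXC6 conditions differed in enrichment as well as in time. The day 3 libraries held 16.4 M and 17.7 M reads, of which 7.0% and 8.0% were assigned to events. The day 4 libraries held 15.5 M and 17.0 M reads, of which 30.4% and 31.1% were assigned to events. The day 3 list had 17898 events on the chromosomes used and was called against a control of 20.6 M reads, while the day 4 list was called against 4.72 M control reads. The control samples in the labels come from other lines, at day 3 an anti-Flag library of V5-tagged Hoxc10 cells and at day 4 an input of Flag-tagged Hoxc8 cells. The weakest event listed at day 3 had 30 estimated reads. The part of these differences in the absence of a day 3 event was not tested. Because each list pools its libraries, no test between days over samples could be made, and all intervals below are 95% Wilson intervals that count sites only.

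The gained sites lay low in the ranking that selected them. Their estimated day 4 read counts ran from 217.0 to 1199.4, with a median of 274.9, and their ranks ran from 675 to 9995, with a median of 7566.5. The retained sites had a median of 400.9 reads and a maximum of 7670.5. Of the 2000 strongest day 4 events 27 (1.35%) were gained, and of the following classes of 2000 the counts were 120 (6.0%), 264, 385 (19.25%) and 582 (29.1%). Across the same classes the median day 3 read count of the retained sites went from 256.7 to 79.9. Over all 69285 day 4 events 74.1% had no day 3 HOXC6 event within 100 bp. At the rank limit, the event ranked 10000 had 217.0 reads and the event ranked 10001 had 216.9. At the distance limit, 145 gained sites had their nearest day 3 HOXC6 event at most 25 bp outside the 100 bp limit, with a median of 310.2 reads, and 198 retained sites had it at most 25 bp inside, with a median of 319.9 reads.

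**Figure D1:**
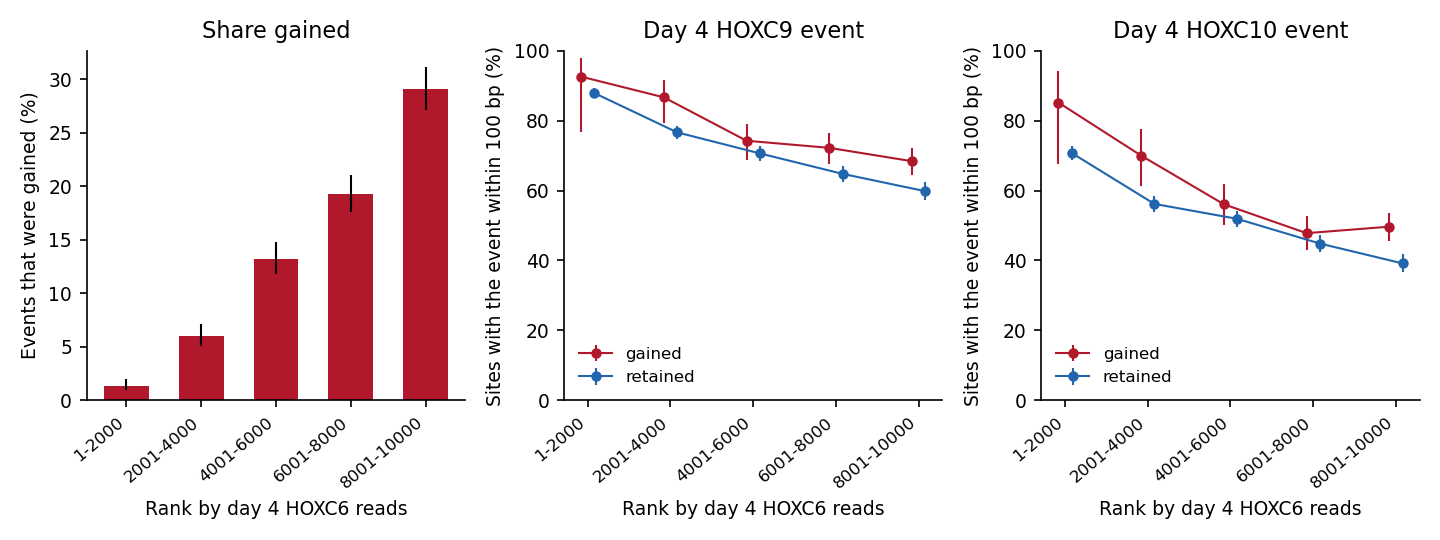
Day 4 HOXC6 events in 5 classes of 2000 by read count. Left, the percentage that was gained, from 1.35% to 29.1%. Middle and right, the percentage of gained (red) and retained (blue) sites with a day 4 HOXC9 or HOXC10 event within 100 bp. Bars and whiskers show 95% Wilson intervals, and the red point lies above the blue point in each class.

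The gained sites were divided at 1 kb from the nearest day 3 HOXC6 event into near and far sites. A day 3 HOXC6 event lay within 1 kb of 487 gained sites (35.3%), and 360 of these had it within 250 bp. In 412 of the 487, a retained site also lay within 1 kb. The other 891 gained sites (64.7%) lay more than 1 kb from every day 3 HOXC6 event, and 140 lay more than 100 kb away. A retained site lay within 10 kb of 129 of the 891. Some gained sites were neighbours of each other, since 48 had another gained site within 100 bp and joining those within 1 kb left 1296 regions.

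**Figure D2:**
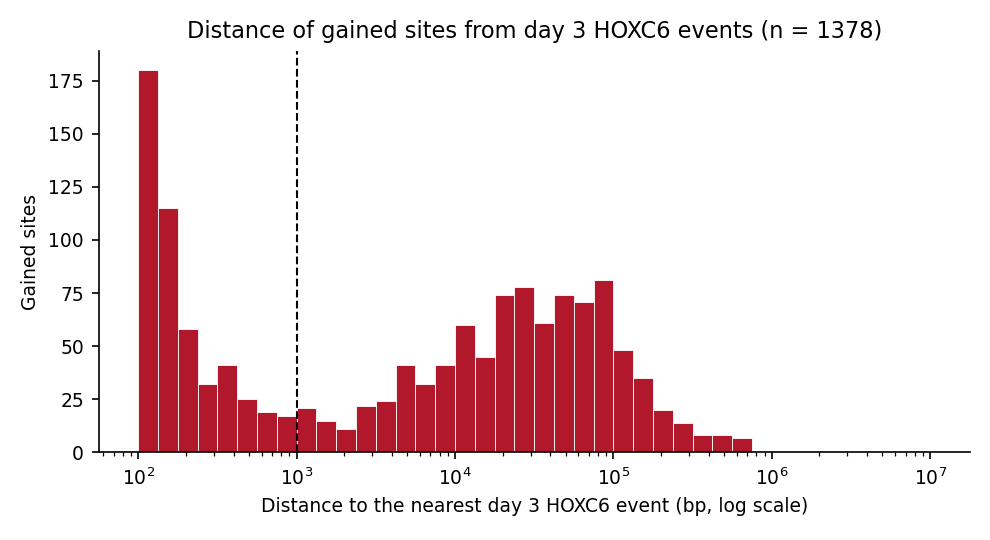
Number of gained sites by distance to the nearest day 3 HOXC6 event, in bp on a log scale. The dashed line marks 1 kb, which separates 487 near sites, most of them close to the 100 bp limit of the rule, from 891 far sites.

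The sequences below come from the 4 strongest gained sites that HOXC8 occupied at day 3. They also come from the strongest with no day 3 event of 6 other full-length HOX factors within 100 bp. Each sequence is the event with 50 bp to either side on the plus strand of mm10, and capitals mark TAAT and TTTAT on either strand. The first lies in an intron of Dok5, which encodes a docking protein of receptor tyrosine kinases, at chr2:170827097-170827197. The second is intergenic, nearest to the sorting receptor gene Sorl1, at chr9:41736346-41736446. The third lies in an intron of Dtx4, a Deltex family gene, at chr19:12495270-12495370. The fourth is intergenic, upstream of the heparan sulfatase gene Sulf1, at chr1:12576975-12577075.
Dok5 site: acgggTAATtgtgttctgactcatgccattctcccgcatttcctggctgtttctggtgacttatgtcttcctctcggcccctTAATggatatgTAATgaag
Sorl1 site: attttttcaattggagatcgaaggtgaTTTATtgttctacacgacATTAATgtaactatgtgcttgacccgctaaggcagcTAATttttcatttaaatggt
Dtx4 site: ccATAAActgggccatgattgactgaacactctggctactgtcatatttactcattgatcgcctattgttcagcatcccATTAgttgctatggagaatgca
Sulf1 site: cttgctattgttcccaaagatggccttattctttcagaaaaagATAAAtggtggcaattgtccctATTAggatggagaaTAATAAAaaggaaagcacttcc

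The sites without a day 3 event of the 6 other factors lie in an intron of Cntn6, a contactin cell adhesion gene, at chr6:104615873-104615973, in an intron of the Wnt secretion gene Wls at chr3:159878939-159879039, and between genes near Cpeb2, an RNA-binding protein gene, at chr5:43133726-43133826. A further site of this kind, in an exon of Lifr, is named only.
Cntn6 site: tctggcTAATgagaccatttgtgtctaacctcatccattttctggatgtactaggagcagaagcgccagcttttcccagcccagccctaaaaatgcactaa
Wls site: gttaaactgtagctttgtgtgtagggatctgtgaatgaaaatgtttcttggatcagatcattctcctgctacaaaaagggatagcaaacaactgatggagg
Cpeb2 site: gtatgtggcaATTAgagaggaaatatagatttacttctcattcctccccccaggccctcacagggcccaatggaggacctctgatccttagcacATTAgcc

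The 4 sites with HOXC8 held between 1 and 3 copies of TAAT, and 3 of them also held TTTAT. The 3 sites printed without a day 3 event of the 6 other factors held between 0 and 2 copies of TAAT and no TTTAT. These 3 lay just outside the 100 bp limit, 102 to 164 bp from a day 3 HOXC6 event and 115 to 122 bp from a day 3 HOXC8 event.

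The Dok5 site was the strongest gained site, with 1199.4 day 4 HOXC6 reads. HOXC8 had 333.9 reads there at day 3, and HOXC9 and HOXC10 had 77.3 and 167.5 at day 4. The nearest day 3 HOXC6 event was 2026 bp away. At the Sorl1 site HOXC6 had 1106.6 reads, HOXC8 had 380.1 at day 3, and at day 4 HOXC9 had 918.8 and HOXC10 had 927.0. No day 3 HOXC6 event lay within 25018 bp of the Sorl1 site. The Dtx4 site had 1092.7 HOXC6 reads, 557.4 HOXC8 reads and 921.6 day 4 HOXC9 reads, and the Sulf1 site had 982.6, 257.4 and 318.1. All 10 strongest gained sites had a day 3 HOXC8 event, 10 had a day 4 HOXC9 event and 8 had a day 4 HOXC10 event.

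Most gained sites were bound at day 3 by HOXC8, the other brachial factor, in the line in which HOXC8 was induced. Each factor was induced alone in its own line, so the overlaps compare separate cultures. A day 3 HOXC8 event lay within 100 bp of 1186 of the 1378 gained sites (86.1%, interval 84.1 to 87.8), beside 53.7% of all day 4 HOXC6 events and 98.3% of the retained sites. Among the 891 sites more than 1 kb from day 3 HOXC6 events the share was 92.1% (90.2 to 93.7). The HOXC8 events at gained sites were the weaker ones, with a median of 146.6 estimated reads against 278.3 at retained sites. Of the gained sites 40.6% had an event among the top 10000 of HOXC8, compared with 78.0% of the retained sites. The HOXC8 libraries differed from each other, with 10.7% and 22.4% of their reads in events, and their pooled list held 44591 events, more than the day 3 HOXC6 list. With the HOXC8 list cut to the length of the day 3 HOXC6 list, 65.4% of the gained sites had a HOXC8 event. The part of the enrichment in the overlap was not tested.

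HOX factors of the thoracic and lumbar levels were also present at day 3 at many of these sites. HOXC9 had an event at 994 gained sites (72.1%, 69.7 to 74.4), beside 48.2% of all day 4 HOXC6 events. Its paralogues HOXA9 and HOXD9 had events at 906 (65.7%) and 858 (62.3%), beside 48.7% and 44.8%. HOXC10 had an event at 710 (51.5%, 48.9 to 54.1), beside 29.3%, in a pooled list of 3 libraries with 1.7% to 16.1% of their reads in events. HOXC13, the most posterior factor, had an event at 371 (26.9%), beside 18.9%. For each of these 5 factors the share was lower at gained than at retained sites, with intervals that did not overlap, as for HOXC9 (85.2% of retained sites) and HOXC10 (68.8%). At like HOXC6 rank HOXC9, HOXA9, HOXD9 and HOXC10 were still lower at gained sites in each of the 5 classes of 2000, with intervals apart in 4, 4, 3 and 3 of them. For HOXC13 the intervals overlapped in each class, and its share was higher at gained sites in ranks 2001 to 4000 (34.2% against 33.0%) and 6001 to 8000 (30.6% against 28.9%).

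**Figure D3:**
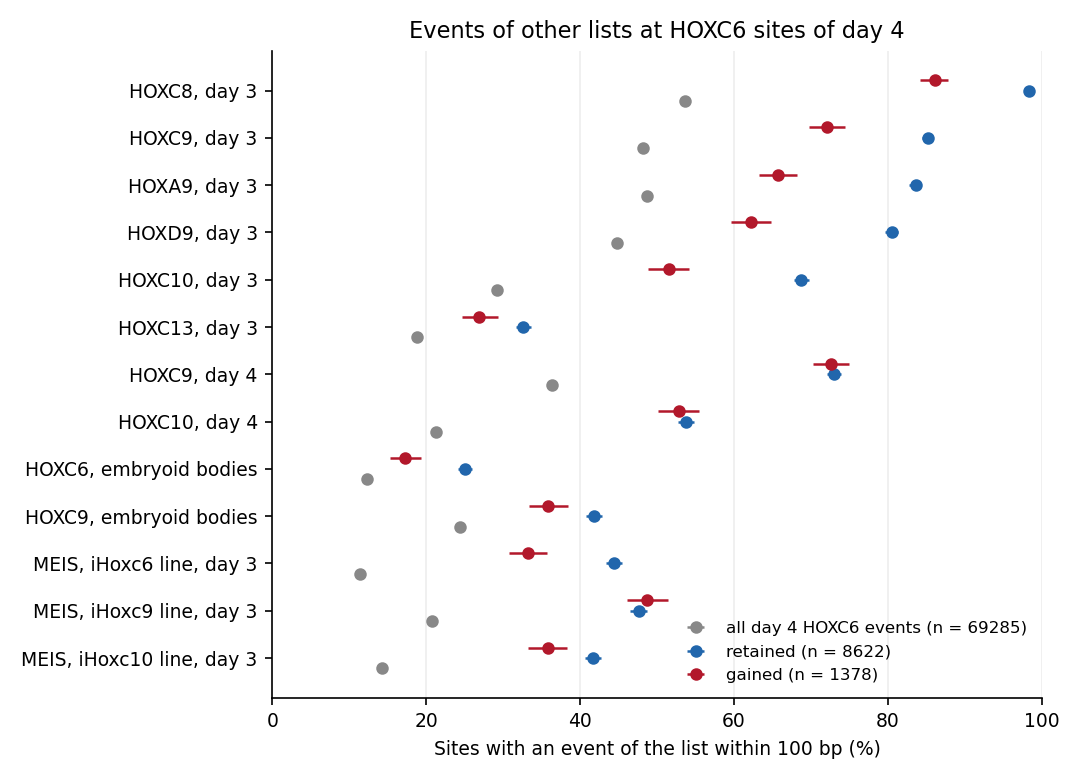
Percentage of sites with an event of each list within 100 bp, for gained sites (red), retained sites (blue) and all day 4 HOXC6 events (grey), with 95% Wilson intervals. The 6 day 3 HOX factors lie lower at gained than at retained sites, while the day 4 HOXC9 and HOXC10 points nearly coincide.

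The day 3 lists overlapped in many combinations. All 6 of the other day 3 HOX factors had an event at 201 gained sites (14.6%), 5 of the 6 at 361 (26.2%) and exactly 1 at 162 (11.8%). For all 6 the share was 25.2% of the retained sites and 7.08% of all day 4 HOXC6 events. HOXC8 was the only factor of the 6 at 127 gained sites (9.22%, 7.80 to 10.9) and at 6.24% of the retained sites. Over all day 4 HOXC6 events this share was 10.3%, so the gained sites were near it. None of the 6 had an event at 67 gained sites (4.86%, 3.85 to 6.13), beside 24.1% of all day 4 HOXC6 events and 0.510% of the retained sites. These 67 sites had a median of 267.0 HOXC6 reads and a maximum of 450.8, at the Cntn6 site. A HOXC8 event lay between 100 and 250 bp away in 39 of the 67, among them the Cntn6 site (115 bp), the Wls site (118 bp) and the Cpeb2 site (122 bp). An event of none of the 6 lay within 1 kb of 21 of them. The 4.86% depends on the overlap limit and on list length, since it was 2.46% with a limit of 250 bp, 13.4% with 50 bp and 16.5% when every list was shortened to the length of the day 3 HOXC6 list.

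At day 4 the posterior factors occupied gained and retained sites at nearly the same rate. A day 4 HOXC9 event lay at 1001 gained sites (72.6%, 70.2 to 74.9) and at 73.0% of the retained sites, beside 36.3% of all day 4 HOXC6 events. A day 4 HOXC10 event lay at 728 gained sites (52.8%, 50.2 to 55.5) and at 53.7% of the retained sites, beside 21.3%. Both factors were present at 656 gained sites (47.6%), beside 49.2% of the retained sites and 16.9% of all day 4 HOXC6 events. Neither was present at 305 (22.1%), beside 22.5% and 59.2%. When sites of like HOXC6 rank were compared, the gained sites had the higher shares in each of the 5 classes, and some of the intervals were apart. In ranks 8001 to 10000, HOXC9 was at 68.4% (64.5 to 72.0) of the gained and 59.8% (57.2 to 62.3) of the retained sites, and HOXC10 was at 49.7% (45.6 to 53.7) and 39.1% (36.6 to 41.7). In ranks 2001 to 4000 they were also apart, with HOXC9 at 86.7% (79.4 to 91.6) and 76.6% (74.7 to 78.5) and HOXC10 at 70.0% (61.3 to 77.5) and 56.2% (53.9 to 58.4). In ranks 6001 to 8000 they were apart for HOXC9, 67.5 to 76.4 against 62.4 to 67.1, and overlapped for HOXC10, and in the other rank classes they overlapped for both factors. The day 4 HOXC9 and HOXC10 events at gained sites had medians of 187.2 and 171.0 reads, against 196.8 and 184.9 at retained sites. The 3 day 4 HOX lists were called against the same control library.

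The posterior factors were also compared between day 3 and day 4, in event lists that the selection of gained sites did not use. As for HOXC6, their day 3 lists had a control of 20.6 M reads and their day 4 lists one of 4.72 M reads. The part of this change of control in the contrast was not tested. Day 3 HOXC9 events lay at 85.2% of the retained and 72.1% of the gained sites, and day 3 HOXC10 events at 68.8% and 51.5%. This left retained sites less room for an event at day 4 only and more for one at day 3 only. The part of that in the contrast was not tested either. HOXC9 had an event at day 4 but not at day 3 at 141 gained sites (10.23%, 8.74 to 11.9), compared with 2.47% (2.16 to 2.82) of the retained sites and 4.71% of all day 4 HOXC6 events. HOXC10 had such an event at 204 gained sites (14.8%, 13.03 to 16.8), compared with 4.96% (4.53 to 5.44) of the retained sites and 5.14% of all. Among the 891 sites more than 1 kb from day 3 HOXC6 events the shares were 9.99% and 15.15%. In each of the 5 rank classes both shares were higher at gained than at retained sites. For HOXC9 they ran from 7.50% to 14.8% at gained and from 1.62% to 3.23% at retained sites, and for HOXC10 from 13.25% to 17.8% and from 3.96% to 5.70%. The reverse, an event at day 3 but not at day 4, was found for HOXC9 at 134 gained sites (9.72%), 14.6% of the retained sites and 16.5% of all day 4 HOXC6 events. For HOXC10 it was found at 186 gained sites (13.5%), 20.01% of the retained sites and 9077 of all 69285 events (interval 12.9 to 13.4), so the share at gained sites was near that over all events. Most gained sites with a posterior factor had it on both days, 860 for HOXC9 and 524 for HOXC10. For HOXC9 this was 62.4% of the gained sites, 70.5% of the retained sites and 31.6% of all day 4 HOXC6 events. For HOXC10 it was 38.0%, 48.8% and 16.2%. By the rule used for HOXC6, 212 of the top 10000 day 4 HOXC9 events and 2686 of the top 10000 day 4 HOXC10 events were gained, from day 3 lists of 74067 and 26859 events.

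Sites with and without HOXC8 differed in their other factors. Of the 1186 gained sites with a day 3 HOXC8 event, 76.6% (74.2 to 79.0) had day 4 HOXC9 and 57.3% (54.4 to 60.0) had day 4 HOXC10. Of the 192 without it, 47.9% (41.0 to 54.9) and 25.5% (19.9 to 32.1) did. Of the 67 with none of the 6 day 3 factors, 10 had day 4 HOXC9 and 7 had day 4 HOXC10. No event of any other full-length HOX factor lay at 53 gained sites (3.85%) on either day, beside 0.464% of the retained sites and 22.4% of all day 4 HOXC6 events.

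In embryoid bodies without patterning signals, which do not become MNs, HOXC6 itself had an event at 237 gained sites (17.2%, 15.3 to 19.3), beside 12.3% of all day 4 HOXC6 events and 25.0% of the retained sites. HOXC9 had an embryoid body event at 494 gained sites (35.8%), beside 24.4% of all and 41.8% of the retained sites. At like rank the intervals of gained and retained sites overlapped in each class for both embryoid body lists, except for HOXC6 in ranks 4001 to 6000 (15.5% against 22.5%) and 8001 to 10000 (14.9% against 20.4%). The Pmp22 site, near the gene of a peripheral myelin protein and chosen after its values were seen, was the gained site with the most embryoid body HOXC6 reads, 2678.7, and it also held 2176.2 day 3 HOXC8 reads. It lay 104 bp from a day 3 HOXC6 event.

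MEIS, a TALE cofactor that binds DNA with HOX proteins, was present at a large share of gained sites already at day 3. In the line with induced Hoxc6 it had an event at 458 gained sites (33.2%, 30.8 to 35.8), beside 11.4% of all day 4 HOXC6 events and 44.4% (43.4 to 45.5) of the retained sites. At like rank the shares were close, such as 26.3% and 27.9% in ranks 8001 to 10000 and 48.3% and 49.0% in ranks 2001 to 4000, and the intervals overlapped in each class. In the Hoxc9 line it had an event at 672 gained sites (48.8%, 46.1 to 51.4), beside 20.8% of all and 47.6% of the retained sites. At like rank the gained sites were higher with intervals apart in ranks 2001 to 4000, 6001 to 8000 and 8001 to 10000. In the last of these the shares were 44.5% (40.5 to 48.6) of the gained and 34.1% (31.6 to 36.6) of the retained sites. In the other classes the intervals overlapped. In the Hoxc10 line MEIS had an event at 493 gained sites (35.8%), beside 14.3% of all and 41.7% of the retained sites, and at like rank the intervals overlapped in each class. At least 1 of the 3 lists had a MEIS event at 795 gained sites (57.7%), beside 25.3% of all and 60.3% of the retained sites. All 3 did at 312 (22.6%), beside 7.31% and 29.8%. The MEIS lists come from 1 library each, of 9.7 M to 12.1 M reads, and the share of reads in events was 7.7% for the Hoxc6 line and 23.8% for the Hoxc9 line, whose part in these shares was not tested.

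The DNA of the gained sites held the central core at a share near that of the retained sites and the posterior core more often. The TAAT core, searched on both strands, lay within 50 bp of 1090 gained sites (79.1%, 76.9 to 81.2), 78.3% of the retained sites and 74.95% of all day 4 HOXC6 events. At like rank the TAAT intervals of gained and retained sites were apart in 1 class, ranks 4001 to 6000, with 84.1% (79.2 to 88.0) against 77.2% (75.2 to 79.1). In windows of the same length 1 kb to either side of the gained sites the share was 50.5%. The TTTAT core lay within 50 bp of 720 gained sites (52.3%, 49.6 to 54.9), compared with 44.9% (43.8 to 45.9) of the retained sites, 44.5% of all events and 32.7% of the flanking windows. In each rank class TTTAT was more frequent at gained sites, from 51.2% to 59.3%, than at retained sites, from 42.0% to 46.9%, with intervals apart in the 3 classes from rank 4001 on. Mean GC content was 40.9% ± 6.53 (SD over 1378 windows) at gained and 41.8% ± 6.26 (SD over 8622 windows) at retained sites.

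TTTAT occurred together with posterior factors. At gained sites with a day 4 HOXC9 event 58.3% (55.3 to 61.4) held TTTAT, and at those without it 36.1% (31.4 to 41.0) did. Among retained sites the shares were 49.1% (47.9 to 50.4) and 33.3% (31.4 to 35.3). The intervals of gained and retained sites were apart where HOXC9 was present and overlapped where it was absent, and the difference between these was not tested. TGATTTAT, the composite of PBX and a posterior HOX factor, which contains TTTAT, lay at 98 gained sites (7.11%, 5.87 to 8.59) and 4.56% (4.14 to 5.02) of the retained sites. It lay at 4.70% of all day 4 HOXC6 events and 0.617% of the flanking windows. TGATTAAT, the composite of PBX with a central factor, lay at 19 gained sites (1.38%) and 1.57% of the retained sites. The E-boxes of basic helix-loop-helix factors were less frequent at gained than at retained sites. At gained sites their shares were near those over all day 4 HOXC6 events. CAGATG, bound by proneural factors, was at 13.9% (12.1 to 15.8) of the gained sites, 17.4% (16.6 to 18.2) of the retained sites and 15.6% of all events. For CAGCTG the shares were 8.49% (7.13 to 10.08), 10.6% (10.0 to 11.3) and 9.66%, and the intervals of gained and retained sites overlapped. At like rank the intervals were apart for CAGATG in ranks 6001 to 8000 and for CAGCTG in ranks 8001 to 10000, and overlapped in the other classes. The MEIS core TGACAG lay at 13.13% of the gained and 12.6% of the retained sites, and the EBF core CCCNNGGG at 4.21% and 4.09%. The HOXC13 form TTTAC lay at 21.4% and 18.9%, the ONECUT site ATCGAT at 0.798% and 1.02%, and TAATTA, which contains TAAT, at 8.71% and 8.33%. All motifs were searched on both strands, and a match is only a match of letters.

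**Figure D4:**
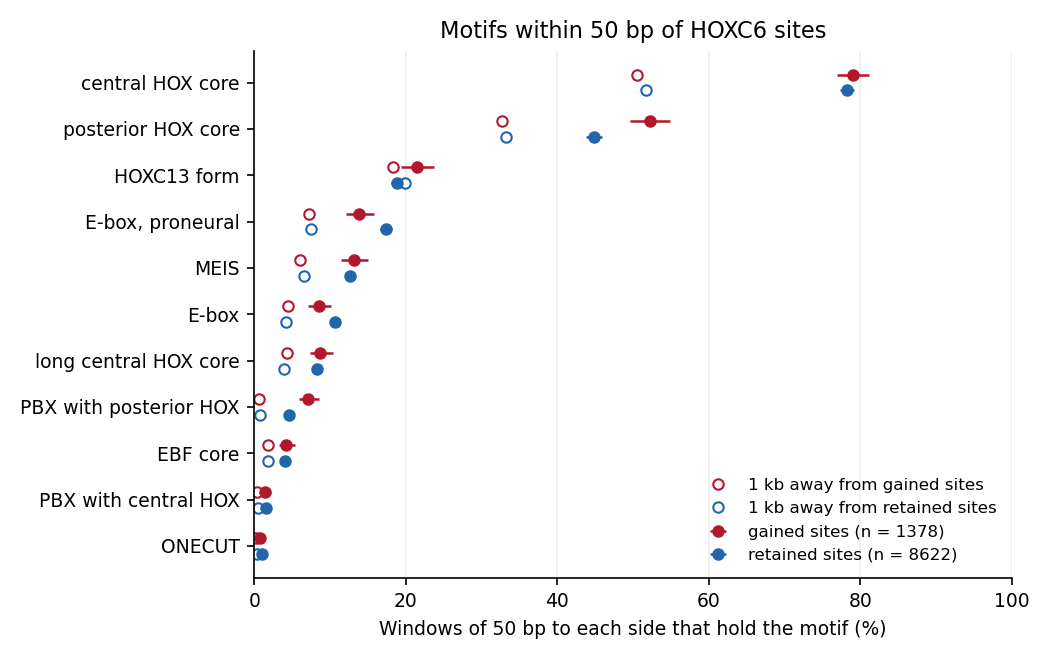
Percentage of windows of 50 bp to each side of the event that hold each motif, at gained (red) and retained (blue) sites, with 95% Wilson intervals. Open circles give windows 1 kb to either side. The posterior HOX core is at 52.3% of gained and 44.9% of retained sites, while the central HOX core is at 79.1% and 78.3%.

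Gained sites were distal, as were HOXC6 events in general. Only 34 (2.47%, 1.77 to 3.43) lay within 1 kb of a protein-coding transcription start site (TSS), beside 2.12% of the retained sites and 4.42% of all day 4 HOXC6 events. The share was 5.08% at 2.5 kb and 4.79% when the start sites of all annotated genes were used. Another 13 (0.943%) lay in other exons, 624 (45.3%) in introns and 707 (51.3%) between genes. The median distance to a protein-coding TSS was 83.8 kb, compared with 72.6 kb for the retained sites and 62.6 kb for all events, and 46.2% (43.6 to 48.9) of the gained sites lay more than 100 kb from one, compared with 42.2% (41.2 to 43.3) of the retained sites. Chromosome X held 15 gained sites, 0.0877 per Mb, while the autosomes held between 0.384 and 0.739 per Mb.

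When each site was assigned to the nearest protein-coding TSS, the gained sites fell to 980 of 21646 genes (4.53%), and the retained sites to 3490 (16.1%). The counts for gene lists are to be read beside these shares. Of these genes 249 had at least 2 gained sites, 79 at least 3 and 21 at least 5. A nearest gene is a position only, since a site can lie inside another gene and enhancers can act over other genes. Genes beside wide gene-poor regions collect more sites. Zfp608, a zinc finger gene, had the most, with 10 gained beside 50 retained sites. All 10 had a day 3 HOXC8 event and 8 had a day 4 HOXC9 event, and 2 of them lay less than 1 kb upstream of its TSS. Next were Nr2f1, which encodes the nuclear receptor COUP-TFI, and the neurodevelopmental gene Auts2 with 7 each, and Meis1 and Paqr3 with 6 each. The remainder of the 20 leading genes had 5 each: Arrdc3, Nkx6-1, Pou3f3, Ncam1, Lrmda, Egln3, Dcc, Nrxn3, Epha7, Cdh2, Cacna2d1, Robo1, Skap1, Dab1 and Nfia. Of these, Nkx6-1, Pou3f3 and Nfia encode transcription factors of the neural tube, Ncam1, Cdh2 and Nrxn3 adhesion molecules, Dcc, Epha7 and Robo1 axon guidance receptors, Cacna2d1 a calcium channel subunit and Dab1 the adaptor of Reelin signalling. All 5 sites assigned to Egln3 lay in introns of Npas3, whose own start sites were nearest to 4 further gained sites.

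**Figure D5:**
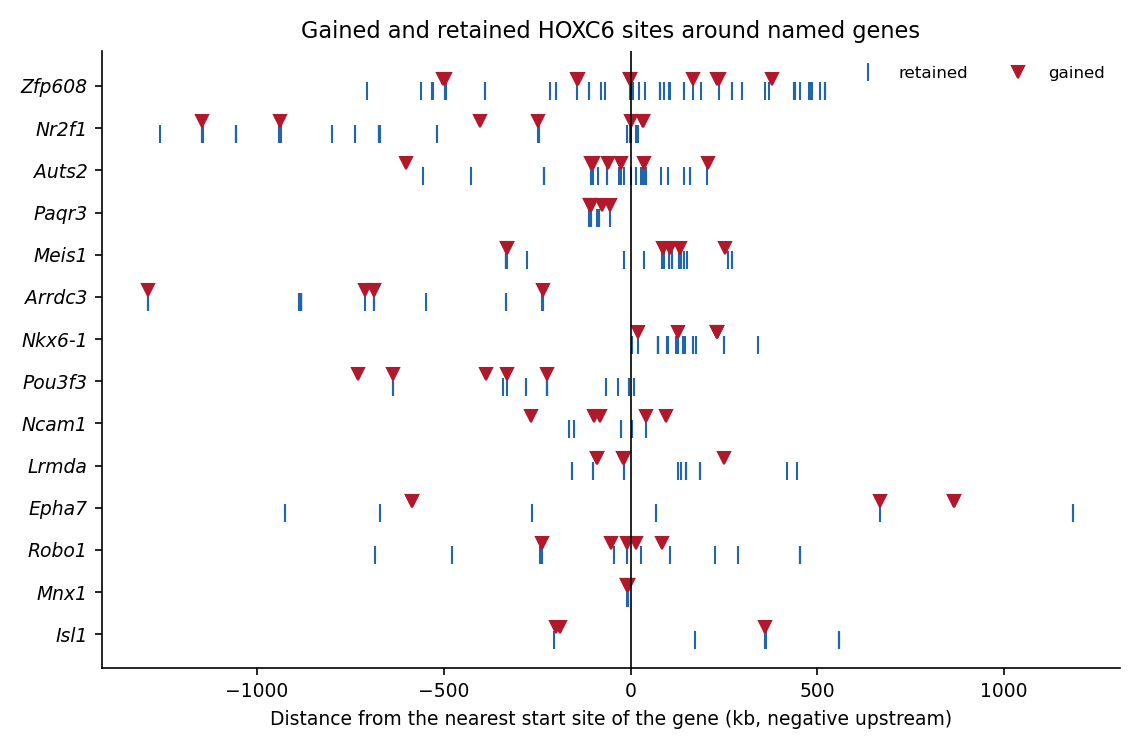
Gained (red triangles) and retained (blue bars) sites assigned to 14 named genes, by distance in kb from the nearest start site of the gene, negative upstream. Most triangles stand far from the start site and many stand beside a bar, as in Paqr3, while Epha7 and Ncam1 hold gained sites with no bar nearby.

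The genes with most gained sites differed in how far these lay from day 3 HOXC6 events. All 5 sites of Ncam1, the neural cell adhesion molecule, lay more than 1 kb from a day 3 HOXC6 event. The strongest was intronic with 833.0 HOXC6 reads and lay 1019 bp from a day 3 HOXC6 event, close to the 1 kb limit. It had 406.8 HOXC8 reads at day 3 and 642.7 HOXC9 and 492.3 HOXC10 reads at day 4. All 5 of Nrxn3, a presynaptic adhesion molecule, were likewise far. None of the 6 sites of Paqr3 or the 5 of Arrdc3 were, since each lay beside a day 3 event. In Nkx6-1, a homeodomain gene of ventral progenitors and MNs, 3 of the 5 sites lay within 190 bp of each other about 232 kb downstream of the TSS, with 726.7, 574.6 and 247.3 HOXC6 reads, and the first pair shared the same day 4 HOXC9 event of 464.3 reads.

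Of 11 genes of MN identity 7 (63.6%) had at least 1 gained site, beside 4.53% of all protein-coding genes, and 7 had at least 1 retained site. This list, like the other gene lists, was chosen with earlier results of these data known. Mnx1, which encodes the MN homeodomain factor HB9, had 4 gained and 3 retained sites, all 4 gained sites standing 6.78 to 8.86 kb upstream of its TSS and 112 to 265 bp from a day 3 HOXC6 event. Their HOXC6 reads were 276.1, 404.4, 242.6 and 358.1. Isl1, a LIM homeodomain gene required for MN generation, had 3 gained sites at least 188 kb from its TSS, the strongest with 601.7 HOXC6 reads. The choline transporter gene Slc5a7 and Lmo4, a LIM-only gene, had 2 gained and 0 retained sites each, and those of Lmo4, with 351.4 and 436.3 reads, lay 37 kb from the nearest day 3 HOXC6 event and shared a day 4 HOXC9 event of 418.7 reads.

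Genes of motor columns and pools, whose products divide MNs by target, had gained sites in 10 of 20 cases and retained sites in 17. Nkx6-1 had 5, the nuclear receptor gene Nr2f2 had 4, Fign had 3 and Foxp1, the accessory factor of HOX proteins in limb-innervating MNs, had 2. Both Foxp1 sites, with 299.0 and 472.7 HOXC6 reads, lay more than 1 kb from day 3 HOXC6 events and had day 3 HOXC8 and day 4 HOXC9 and HOXC10 events. Among the TALE cofactor genes, Meis1 had 6 gained sites, and Meis2 and Pbx3 had 2 each. The 6 Meis1 sites had 243.2 to 340.8 reads, and all had day 3 HOXC8 and day 4 HOXC9 events.

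Axon guidance and adhesion genes were the next group. In the Slit, Robo and netrin list 10 of 17 genes had 25 gained sites and 14 had 85 retained sites, led by Robo1 and Dcc with 5 each and Robo2 with 4. Among Eph receptors and ephrins 5 of 22 genes had 11 gained sites and 11 had retained sites. At Epha7 all 5 gained sites had a day 3 HOXC8 event, 4 lay more than 1 kb from day 3 HOXC6 events, and a site 585 kb upstream with 354.5 HOXC6 reads had 1063.5 day 4 HOXC9 reads. Semaphorins, neuropilins and plexins had gained sites in 6 of 31 genes and retained sites in 11, with 4 gained sites at Nrp2. Those upstream of the Nrp2 TSS lay in introns of Pard3b. Type II cadherins, which sort motor pools, had gained sites in 8 of 13 genes and retained sites in 9, with 3 gained sites at Cdh11.

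Neuronal maturation genes had 26 gained sites in 10 of 26 genes and retained sites in 17, led by Nrxn3, Ncam1, Rbfox1 and Ank3. Of the 26 sites 23 lay more than 1 kb from day 3 HOXC6 events, compared with 64.7% of all gained sites. Other lists lay on either side of this share, with 10 of 13 sites for neuronal transcription factor genes and 5 of 12 for ventral progenitor and Notch genes. Neuronal transcription factor genes had gained sites in 7 of 26 cases and retained sites in 18. Myt1, a zinc finger gene of differentiating neurons, had 3 gained and 0 retained sites, 2 of them within 1 kb of a TSS and with day 4 HOXC9 reads of 81.5 and 393.6. Genes of ventral progenitors and Notch signalling had gained sites in 9 of 26 cases and retained sites in 19, led by Irx3 with 3 gained sites. The Irx3 sites downstream of its TSS lay in introns of Fto. Retinoic acid signalling genes had gained sites in 2 of 17 cases, Stra6 with 2 and Rarb with 1, and retained sites in 9. The Stra6 sites lay in introns of Ccdc33. The Hox genes themselves had 4 gained sites in 2 of 39 genes (5.13%), near the share over all genes, and retained sites in 12. A site 77 bp upstream of a Hoxc4 TSS had 439.4 HOXC6 reads, 115.1 HOXC8 reads at day 3 and 1479.0 HOXC9 reads at day 4, and a site 3.55 kb from Hoxa5 had 262.8, 280.9 and 1287.5. These lists hold long genes and genes beside gene-poor regions, and the part of that in the counts was not tested.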

How the data were processed

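Replicate libraries were independent differentiations sequenced as ChIP-seq, with control libraries from other lines. Per the methods of the study, the authors aligned reads to mm10 with Bowtie (1.0.1) and called binding events in each condition with MultiGPS. Per the file headers each list gives 1 value per event over all libraries of its condition, and the events listed have q-values under 0.001. The submitters' processing notes also name Picard 2.8.2 and edgeR 3.22.5. In each deposited list the authors gave an event's position, the estimated count of its reads over all libraries (an expected count) and of the scaled control, the log2 ratio of both, and a score equal to the log2 of the q-value. Further deposited columns hold the authors' own comparisons between conditions and were not used, and 0 columns belonged to other samples.

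Events on chromosomes 1 to 19 and X were ranked by estimated count, the top 10000 day 4 HOXC6 events were taken, and events at most 100 bp apart counted as shared. The members and gene lists were chosen with earlier results of these data known. Shares have 95% Wilson intervals over sites, which say nothing of replicate spread. Sites were assigned to the nearest protein-coding TSS of GENCODE release 21 (21646 genes), promoters being within 1 kb, and windows of 50 bp to either side were read from the mm10 genome. The deposited sequence of every gained site, 1378 of 1378, was found within 100 bp of its position in that genome. Named were the 10 strongest sites, the 20 genes with most gained sites (at equal counts, the summed read count decided), and, of each gene list, up to 4 genes with most gained sites. Scripts used Python 3.11.15, numpy 2.4.6, pandas 2.3.3, scipy 1.17.1 and pysam 0.24.0 and were tested on simulated data. Alternatives were other rank limits, overlap limits, q-values, list lengths, TSS sets and motif windows. Chromosome Y and unplaced contigs were left out. A gene of the lists is not reported here.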

Additional observations from a re-analysis of the deposited data

How the results depend on the processing

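Of the 44 values recomputed for 7 main results under other settings, 14 stayed within the counting interval of the value reported, or for the number of sites within 1.5 times, and 30 did not. Ranking events by q-value in place of read count left all 7 within it. Taking the top 5000 events gave 271 gained sites, of which 93.0% had day 3 HOXC8, 3.32% none of the 6 other day 3 HOX factors, 82.7% day 4 HOXC9, 67.2% day 4 HOXC10 and 82.3% TAAT. When only the 10000 strongest day 3 HOXC6 events counted, 2669 sites were gained, 91.2% with HOXC8 and 2.96% with none of the 6. With an overlap limit of 50 bp 2033 sites were gained, and the shares for HOXC8, none of the 6, day 4 HOXC9 and day 4 HOXC10 were 70.9%, 13.4%, 56.5% and 38.3%, and with 250 bp 1018 sites were gained and the shares were 93.7%, 2.46%, 79.2% and 62.1%. With the other lists held to q under 1e-06 the same shares were 77.6%, 8.78%, 67.5% and 46.0%, and with every list shortened to the length of the day 3 HOXC6 list they were 65.4%, 16.5%, 52.4% and 48.3%. The share near a TSS was 5.08% within 2.5 kb and 4.79% with all annotated genes. The motif share was 57.9% for TAAT within 25 bp, 92.0% within 100 bp and 8.71% for TAATTA. An alternative chosen after seeing the data kept only the 891 sites over 1 kb from a day 3 HOXC6 event, where the shares were 92.1% for HOXC8, 3.37% for none of the 6, 76.2% for day 4 HOXC9, 56.1% for day 4 HOXC10 and 81.6% for TAAT. A wider limit or longer list finds more overlaps by construction, and the cause of the other changes was not tested.

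No paired analysis was possible because each deposited list pools its libraries and carries no value per replicate. For the same reason no fit without 1 library and no test of day 3 against day 4 over samples was run. The day 3 HOXC6 libraries had 7.0% to 8.0% of their reads in events and the day 4 libraries 30.4% to 31.1%, so a site with no day 3 event was one not called at that enrichment, and weak day 3 binding below its lowest listed count of 30 reads was not detectable.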

Other observations

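Chimeric factors that exchange parts of HOXC10 and HOXC13 were profiled at day 3 in 4 further lists. The HOXC13:C10.1 and HOXC13:C10.2 chimeras had events at 971 (70.5%) and 1116 (81.0%) of the 1378 gained sites, compared with 86.9% and 89.0% of the retained sites and 48.8% and 54.5% of all day 4 HOXC6 events, while full-length HOXC13 had events at 26.9% of the gained sites. The HOXC10:C13.1 and HOXC10:C13.2 chimeras had events at 254 (18.4%) and 292 (21.2%) of the gained sites, compared with 24.3% and 28.5% of the retained sites and 10.08% and 11.8% of all day 4 HOXC6 events, while full-length HOXC10 had events at 51.5%. The lists differ in length and enrichment, and the part of this in the shares was not tested. The day 4 PBX lists of the Hoxc9 and Hoxc10 lines, of 1164 and 848 events from 1 library each, had events at 9 and 1 gained sites.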
